A study of Drosophila melanogaster with 4 samples.

Results

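The cytoplasmic ribosomal protein genes of Drosophila melanogaster were followed in RNA from control ovaries and ovarian tumors. Members were all genes whose FlyBase symbol begins with RpL or RpS followed by a digit or P. This rule gave 92 of the 17773 genes listed, 54 of the large subunit and 38 of the small subunit. Symbols alone chose them, without any measured value. The 2 control libraries had the genotype tj-GAL4, tubulinGal80ts, and the 2 tumor libraries had tj-GAL4, tubulinGal80ts; UAS-aPKCΔN UAS-RasV12. Both genotypes thus carried tj-GAL4, a driver that works in somatic follicle cells but not in germ cells, and the temperature-sensitive repressor Gal80. Adult females were kept for 20 days at 29 °C, a temperature at which the repressor is inactive. Control tissue was limited to follicles that had not yet begun to take up yolk, whereas tumors were taken as they were. Protease from Bacillus licheniformis was used to dissociate both tissues, and filtering enriched the epithelial cells, so stage and genotype differ together and cannot be told apart.

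The ribosome translates every cellular mRNA. Its large subunit joins amino acids at the peptidyl transferase centre and releases the growing chain through an exit tunnel, and its small subunit reads the mRNA. Most ribosomal proteins are needed in equal numbers, and in flies the loss of 1 copy of many of these genes gives the slow-growing Minute phenotype. Most have short, highly transcribed genes, and many hold small nucleolar RNAs (snoRNAs), the guides of ribosomal RNA modification, in their introns. Several fly genes also have a duplicate copy, often enriched in the germline.

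Totals were 41248098 to 50971937 estimated counts per library. The transgene-driven genes rose: aPKC was at 47.5 and 50.9 CPM (counts scaled by TMM-adjusted library size to 1000000 reads) in control against 1138 and 1641 in tumor, and Ras85D at 16.8 and 4.40 against 2124 and 2427. Of 12 germline markers matched, 9 fell and 0 rose on their own targets by edgeR's quasi-likelihood test at an adjusted p of 0.05, and their summed level went from 1509 and 1535 CPM to 674 and 721, with osk listed at 0 in tumor. Of 5 hemocyte markers 4 rose, and their summed level went from 94.0 and 65.4 CPM to 408 and 649. Of 8 follicle cell markers 3 rose and 2 fell, at 1234 and 1487 CPM in control against 1608 and 1870 in tumor. Of 6 muscle markers 3 fell, and their sum went from 219 and 413 CPM to 100.3 and 62.1, while of 3 tested fat body markers 1 rose. Over all genes tested on own targets, 23.4% were called higher and 21.2% lower. The follicle cell and fat body lists are short, and their counts of calls are not read as a change in these cells. On locus sums, which are explained below, 7 germline markers fell and 1, bgcn, rose, with a median log2 fold change of -0.73 in place of -2.94, and osk had -1.96. The markers bam and aub lie partly inside the targets of the ribosomal protein genes RpS27 and RpL9. They had -0.62 and -0.87 on locus sums in place of -4.61 and -6.01. Locus sums of germline markers thus include counts of neighbouring genes and are not a measure of germline RNA alone. On locus sums 4 hemocyte markers rose and 1, srp, fell, and 4 muscle markers fell. Over all loci 27.9% were called higher and 27.4% lower. The part of these marker changes in the ribosomal protein results was not tested, and in bulk RNA fewer cells of a type and less RNA per cell cannot be told apart.

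The value listed for a ribosomal protein gene depends on how reads were shared among overlapping targets. The target that stood for each of the 92 genes had the length of the gene's annotated span, introns included, plus 4000 bases. This makes neighbouring targets overlap, and for 86 members all exon sequence also lies inside targets of other genes. Of the members, 25 were listed at 0 estimated counts in all 4 libraries, and 41 had under 100 counts in every library. They include genes that every ribosome needs, such as RpS6, the substrate of S6 kinase, and RpL19. A locus sum was therefore formed for each gene from the counts of every target that holds one of its exons. Of the 25 members listed at 0, 22 had locus sums over 50000 counts in every library. The largest contributor to the locus sum was the gene's own target for 30 members, a snoRNA target for 28, another gene for 31 and another ribosomal protein gene for 2. RpL10Aa had no counts at its locus.

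**Figure D1:**
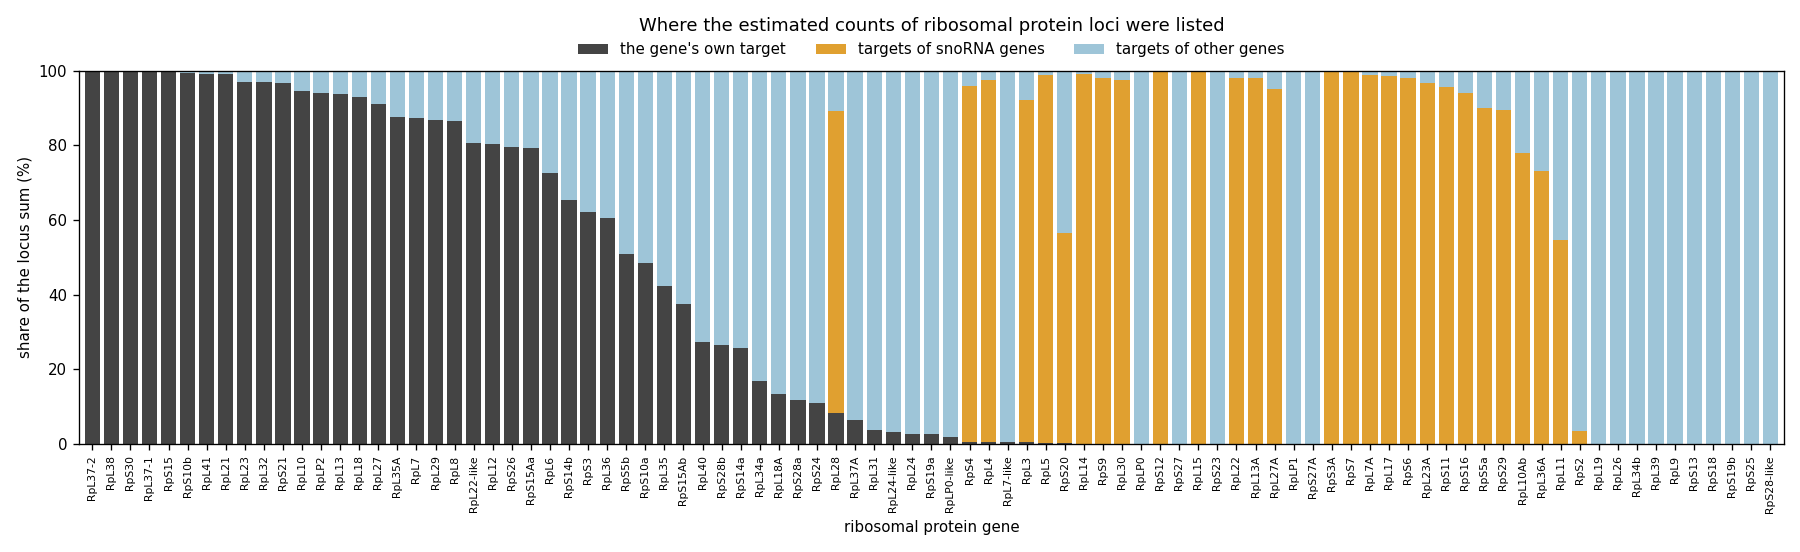
Each bar is a ribosomal protein gene with counts at its locus, and its parts are the shares (%) of the locus sum, over all 4 libraries, listed on the gene's own target, on snoRNA targets and on targets of other genes. In 16 genes, at the left, the own target holds at least 90% of the sum, and toward the right it holds almost none.

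Ribosomal protein genes were lower in tumor almost throughout. On own targets, 55 members could be tested, of which 33 fell and 4 rose by edgeR's quasi-likelihood test with Benjamini-Hochberg adjustment over all genes. The background was 21.2% of 9402 tested genes called lower and 23.4% called higher. The median log2 fold change of the tested members was -0.64, beside 0.02 over all tested genes. Both tumor libraries lay below both control libraries in 42 of them, where the background was 38.8%, and above in 4, where it was 40.8%. On locus sums, 81 of 90 tested members fell, 3 rose and 6 were not called, where 27.4% of 14670 loci were called lower and 27.9% higher. The median over members was -0.61, beside 0.00 over all loci. Their spread was narrow, with an interquartile range of 0.25 on the log2 scale against 0.95 over all loci. For 84 members both tumor libraries lay below both control libraries on the locus sum, a pattern met by 40.7% of all loci. These counts of loci are not independent, since neighbouring members can share a target.

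All 33 members that fell on their own target also fell on the locus sum, and 33 of the 37 members whose own target could not be tested fell on the locus sum. By contrast, 3 of the 4 members that rose on their own target, RpS20, RpL35 and RpS14a, fell on the locus sum. Many calls were lost when a control library was left out, among members and among all genes tested alike. Such a fit leaves a single control library. The members' own-target median was then -0.61 without control 1 and -0.66 without control 2, beside 0.05 and 0.06 over all genes. Few member calls were lost without a tumor library. Among locus falls named below, those of RpL3, RpL5, RpL6, RpL7, RpL10, RpL10Ab, RpL11, RpL22, RpL24, RpL24-like, RpS5a and RpS15Aa were lost without control 1 or without control 2, those of RpL35 and RpL40 without control 1 alone. The highest adjusted p among these other than RpS5a was 0.11, that of RpL11. The median of the locus sums stayed between -0.67 and -0.55 when any library was left out.

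**Figure D2:**
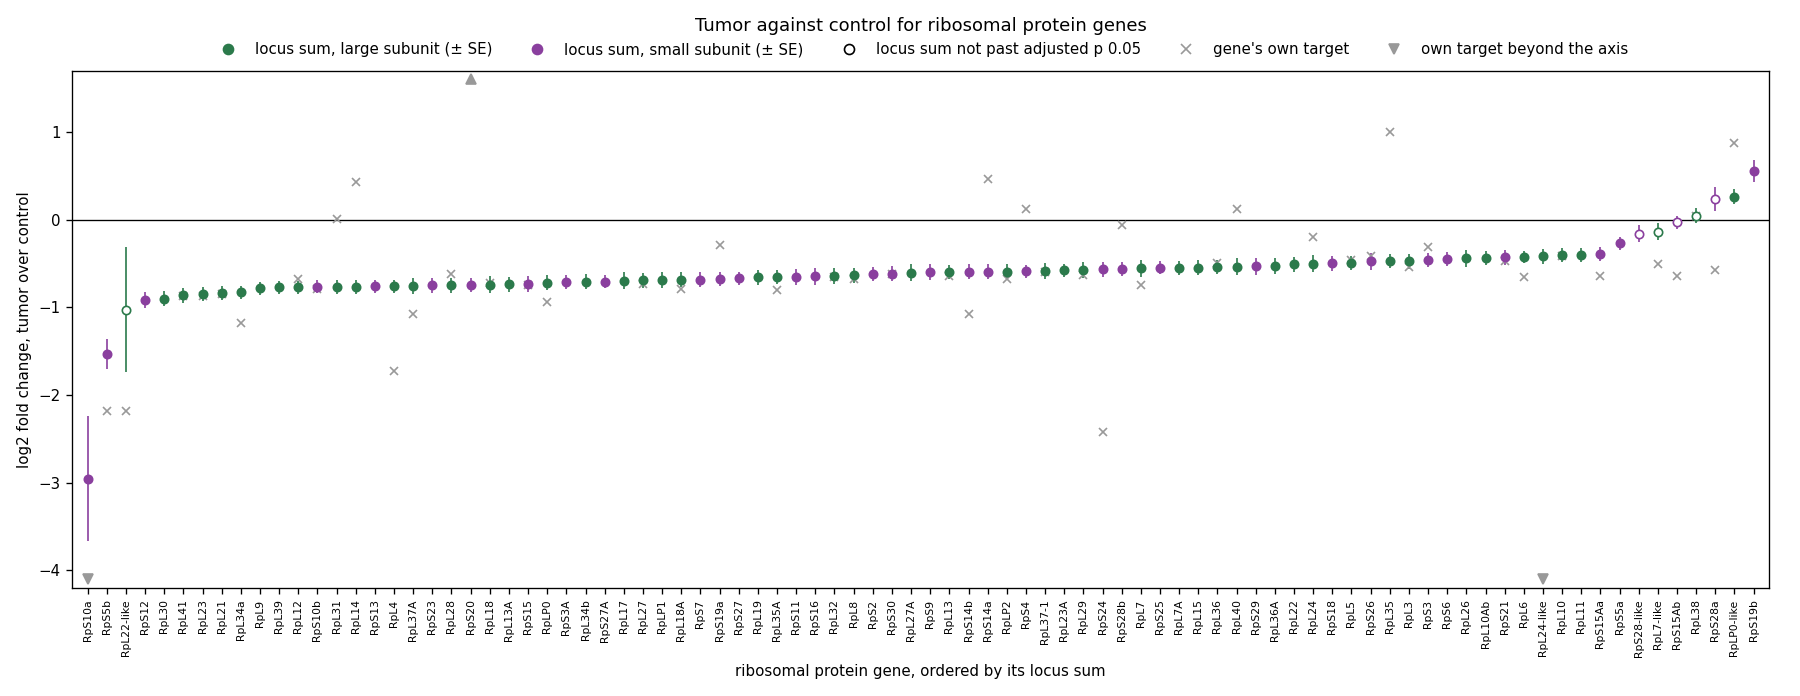
Log2 fold change of tumor over control for ribosomal protein genes, ordered by the locus sum (circles, ± SE from edgeR with 2 libraries per group, open where not called), with the gene's own target as a cross. Most circles lie between -0.9 and -0.3, and the own targets of RpS10a, RpS20 and RpL24-like, which have libraries listed at or near 0, lie beyond the axis.

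The family as a whole took a smaller part of the RNA in tumor. All targets at these loci, 400 in number, held 27.9% and 27.3% of the estimated counts in the control libraries and 19.8% and 18.9% in the tumor libraries. The members' own targets held 8.57% and 8.36% in control and 5.92% and 5.66% in tumor. The snoRNA targets at these loci held 10.1% and 10.01% in control against 6.98% and 6.64% in tumor, so counts listed under snoRNA names were lower as well. Summed over own targets and scaled per length, the level was 106820 and 104413 TPM, the deposited per-length unit, in control and 80147 and 79132 in tumor. This is a log2 difference of -0.41, with a mean of 105616 ± 1702 (SD, n = 2) against 79640 ± 717 (SD, n = 2). The groups did not overlap in any of these sums. The locus, own-target and TPM sums each gave a two-sided exact permutation p of 0.333, the smallest that 2 libraries against 2 allow.

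**Figure D3:**
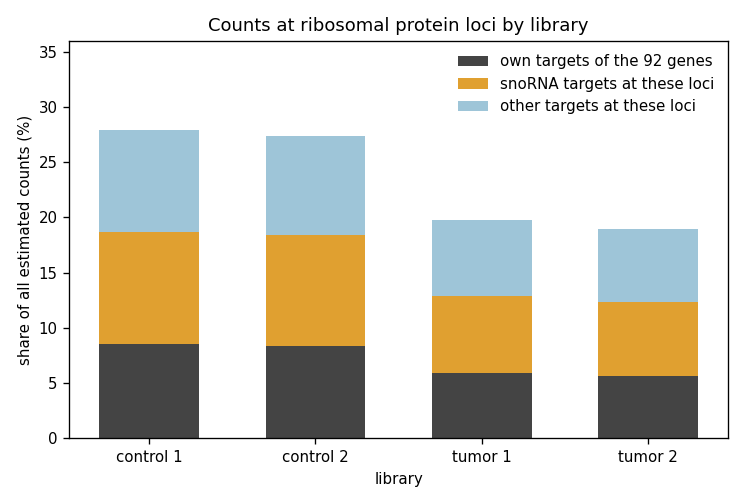
Share of all estimated counts (%) per library held by the 92 genes' own targets, by snoRNA targets at their loci and by other targets there, stacked. The full bars reach 27.9% and 27.3% in control and 19.8% and 18.9% in tumor, and every part is smaller in both tumor libraries.

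The most directly readable genes were those whose own target held nearly all of the locus sum. Of these 16 genes 15 were tested, and 14 of them fell. RpL41 (FBgn0066084, 2R:24903416-24903935 on BDGP6.54), which encodes the shortest ribosomal protein, had the highest level per length of them, with 24600 and 22936 CPM per kb of exon in control and 13481 and 12480 in tumor. Its log2 fold change was -0.87 ± 0.10 (SE), with an edgeR adjusted p of 0.0058 that reached 0.051 without control 1. RpL23 (FBgn0010078, 2R:22854383-22855694), a large subunit protein, stood at 3634 and 3526 CPM in control against 2002 and 1907 in tumor. Its log2 fold change was -0.87 ± 0.09, with an edgeR adjusted p of 0.0045, at most 0.042 with any library left out. RpL21, at 3663 and 3579 CPM in control, was at 2081 and 1952 in tumor, and the groups did not overlap in any of these genes.

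RpL38 was the exception among these genes. It lies at 2R:4515388-4516458 (FBgn0040007), and 100% of its locus sum was on its own target. Its levels were 702 and 709 CPM in control and 760 and 695 in tumor, so the groups overlapped. The log2 fold change was 0.04 ± 0.09, with an edgeR adjusted p of 0.71, and its sign depended on the scaling, from -0.07 to 0.29 over the alternatives. Per kb of exon its control levels of 693 and 700.2 CPM were the lowest of the 15 such genes tested.

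The other members with the highest mean TPM, all of the large subunit, fell by similar amounts. RpL12, part of the base of the stalk, was at 5136 and 5289 CPM in control and 3400 and 3125 in tumor. RpL6 was at 4220 and 4224 CPM in control and 2861 and 2510 in tumor. RpL7 was at 4186 and 4309 CPM in control and 2717 and 2346 in tumor. In each of these genes both tumor libraries lay below both control libraries by more than the gap between replicates. RpL8, whose protein lies next to the peptidyl transferase centre, was at 4034 and 4154 CPM in control and 2666 and 2436 in tumor. The log2 fold changes of these 4 genes were between -0.75 and -0.65, with edgeR adjusted p-values of 0.0089 to 0.012, which rose to between 0.061 and 0.080 without control 1 or without control 2.

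In some genes the own target and the locus sum differed widely. RpS24 had the lowest own-target fold change outside the duplicated genes. It was at 563 and 540 CPM in control, against 99.7 and 106 in the tumor libraries, with a log2 fold change of -2.42 and an edgeR adjusted p of 0.0012. Yet 81.7% of its locus sum was listed on Ugt317A1, and the sum itself went from 3622 and 3507 CPM to 2521 and 2287, a log2 fold change of -0.57 ± 0.09. RpL4 was at 36.6 and 30.7 CPM in control and 14.4 and 6.03 in tumor on its own target, with 97.1% of its locus sum listed on snoRNA:Or-aca3. Its locus sum of 6316 and 6572 CPM in control was among the highest of the family and was 3922 and 3687 in tumor. Its log2 fold change was -0.76 ± 0.08. RpL37A had a log2 fold change of -1.08 on its own target and of -0.76 on the locus sum.

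The same held for members that were higher on their own target. RpL35, a protein at the rim of the exit tunnel, rose from 561 and 555 CPM to 1117 and 1120, a log2 fold change of 1.00 ± 0.08 with an edgeR adjusted p of 0.0028. All of its exons also lie inside the Rab18 target, which fell with a log2 fold change of -1.86, and the locus sum fell from 2363 and 2316 CPM to 1706 and 1659. RpS20 was listed at 0 counts or nearly so in both control libraries and at 190 and 366 counts in tumor, against a locus sum of 2893 and 2851 CPM that fell to 1778 and 1645. RpL14, RpS4 and RpL40, the next highest by own target, had log2 fold changes of 0.43, 0.12 and 0.12 that were not called, and locus sums with -0.77, -0.59 and -0.54 that were.

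By place in the ribosome, the locus sums of every group examined fell, with small differences in size between the groups. The 3 P stalk proteins RpLP0, RpLP1 and RpLP2, which recruit the elongation factors, had log2 fold changes of -0.72, -0.69 and -0.59. RpL5 and RpL11, which bind the 5S RNA before it joins the large subunit, had -0.49 and -0.40. RpL40, RpS27A and RpS30, which are made as fusions with ubiquitin or a ubiquitin-like protein, had -0.54, -0.71 and -0.62. The 9 proteins of the exit tunnel and its rim all fell, with a median of -0.66. Among these 9, RpL39 was listed at 0 on its own target, and 80.5% of its locus sum was listed on RpL12. The 5 proteins of the mRNA entry site and decoding region also fell, with a median of -0.62. RpL3, RpL8 and RpL10, next to the peptidyl transferase centre, fell with a median of -0.47. Differences between these groups were not tested. Outside the duplicated pairs, the lowest value was that of RpS12, whose protein acts upstream of the transcription factor Xrp1 in flies. Its locus sum went from 2381 and 2435 CPM to 1332 and 1216, a log2 fold change of -0.92 ± 0.09.

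Genes with and without an intronic snoRNA both fell. The 28 members that host 74 annotated snoRNA genes all fell on the locus sum, with a median log2 fold change of -0.61. Of the 62 tested members that host none, 53 fell and 3 rose, also with a median of -0.61. The difference between these groups was not tested. By chromosome arm the medians were -0.60 for 2L, -0.66 for 2R, -0.60 for 3L, -0.66 for 3R and -0.56 for X. RpS3A, the lone member on chromosome 4, had -0.71.

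The medians of large and small subunit genes lay close together. On locus sums 48 of 52 tested large subunit genes fell and 1 rose, where the median log2 fold change was -0.62. Of the small subunit, 33 of 38 genes fell and 2 rose, with a median of -0.60. On own targets 23 of 35 large subunit genes fell, with a median of -0.66, and 10 of 20 small subunit genes fell, with a median of -0.60. The ratio of large to small subunit counts over their loci was 1.65 and 1.66 in control against 1.66 and 1.64 in tumor, with overlap between the groups (two-sided exact permutation p = 1.0). In summed TPM of own targets the ratio was 2.82 and 2.81 in control and 2.80 and 2.72 in tumor, where the exact permutation p was 0.333, the smallest possible. Those sums leave out counts listed on snoRNA targets and on other genes, so they do not measure the balance of the subunits.

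Duplicated genes were examined in 14 pairings. In these, the less abundant copy had a locus sum that could be tested in 12, of which 5 fell, 2 rose and 5 were not called. Among the other 78 members 76 fell, 1 rose and 1 was not called. This difference was not tested, and the locus sums of several such copies are mostly other genes' counts. The own target held 0% of the locus sum of RpS19b and 1.74% of that of RpLP0-like, the copies whose locus sums rose. Among the copies not called it held 0.38% for RpL7-like, 0% for RpS28-like and 11.8% for RpS28a.

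RpS5b fell both on its own target and on its locus sum. RpS5a and RpS5b encode forms of a protein at the mRNA exit site of the small subunit, and RpS5b is the copy enriched in the female germline. RpS5b (FBgn0038277, 3R:14900432-14901563) was at 711 and 567 CPM in control and 169 and 113 in tumor. Both tumor libraries were far below both control libraries, with a log2 fold change of -2.18 ± 0.25 and an edgeR adjusted p of 0.0056, at most 0.035 with any library left out. On the locus sum it had -1.53 ± 0.17. RpS5a was listed at 0 on its own target, and its locus sum of 3470 and 3569 CPM in control was 2900 and 2938 in tumor. That log2 fold change of -0.27 ± 0.07, with an edgeR adjusted p of 0.028 that was 0.18 without control 1 and 0.22 without control 2, was the smallest among called falls. RpS5b thus made up 25.9% and 22.7% of the pair's locus counts in control and 13.4% and 10.2% in tumor. The germline markers above fell in the same libraries, and their part in the shift of this pair was not tested.

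RpS14a and RpS14b lie next to each other on X, at 7933742-7934677 and 7934898-7935792, and encode the same protein. RpS14b went from 2538 and 2550 CPM to 1379 and 1024, and RpS14a from 609 and 615 to 766 and 925. The edgeR adjusted p-values were 0.011 and 0.040, and both calls were lost without control 1 or control 2, with adjusted p-values of up to 0.063 and 0.17. RpS14a made up 19.2% and 19.3% of the pair's counts in control and 35.5% and 47.2% in tumor. Because the copies are near-identical and each lies inside the target of the other, their split is uncertain. Their sum does not depend on how counts are divided between the copies, and was 3147 and 3165 CPM in control and 2145 and 1949 in tumor.

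**Figure D4:**
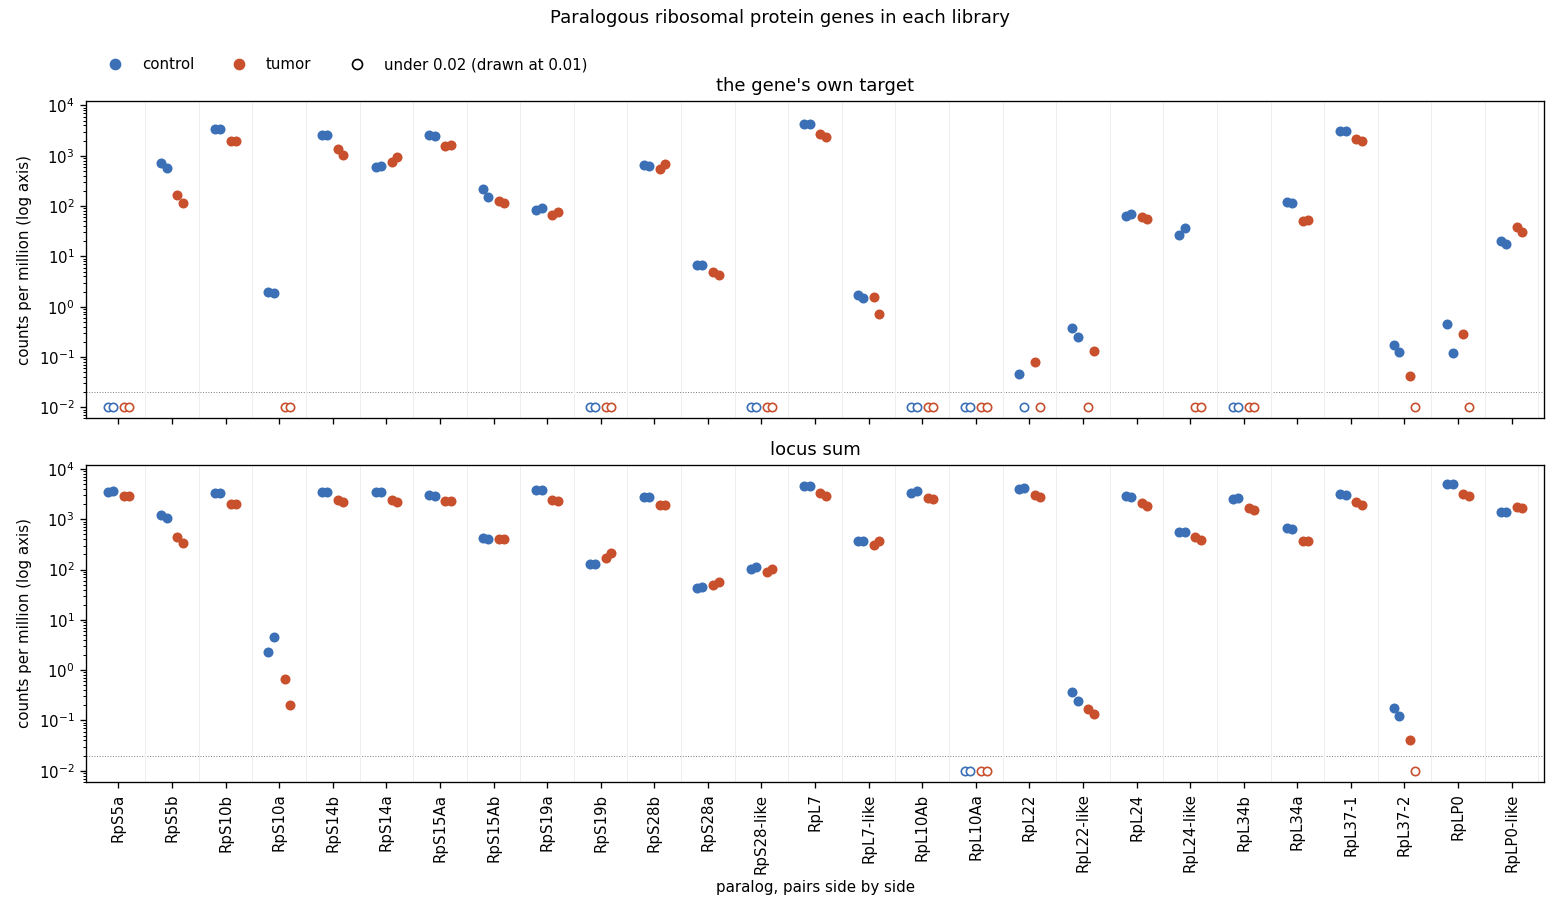
CPM on a log axis for each duplicated ribosomal protein gene and its copies, on the own target (upper panel) and on the locus sum (lower panel), with 1 point per library and values under 0.02 drawn as open points at 0.01. RpS5b is lower in both tumor libraries in both panels, whereas RpS14a and RpS14b differ in the upper panel alone, as their locus sums hold the same targets.

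RpS10a, a rare copy of RpS10b, was at 78 and 92 counts in control and listed at 0 in both tumor libraries. RpS10b was at 3382 and 3338 CPM in control against 1941 and 1954 in tumor, with a log2 fold change of -0.79 and an edgeR adjusted p of 0.0050. RpS15Aa fell from 2555 and 2522 CPM to 1592 and 1650, with an edgeR adjusted p of 0.0074 that reached 0.059 without control 1. RpS15Ab was at 223 and 151 CPM in control and 126 and 114 in tumor, without overlap but with an edgeR adjusted p of 0.069, and its locus sum had a log2 fold change of -0.03. RpS19a was not called on its own target, and its locus sum fell from 3828 and 3759 CPM to 2445 and 2286. RpS19b was listed at 0, and the counts at its locus, which belong to targets of CG13599 and other genes, went from 127 and 129 CPM to 166 and 211.

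RpS28b was not called on its own target, at 658 and 621 CPM in control and 541 and 682 in tumor, while its locus sum had a log2 fold change of -0.56. RpS28a, at 6.70 and 6.85 CPM in control and 4.78 and 4.31 in tumor, did not pass the test, and RpS28-like was listed at 0. Both RpL34 copies fell on the locus sum, RpL34a with a log2 fold change of -0.83 and RpL34b with -0.71. RpL37-1 was at 3117 and 3058 CPM in control and 2166 and 1924 in tumor, and RpL37-2 had at most 7 counts in any library. RpL22 fell on the locus sum with -0.51, and RpL22-like had at most 15 counts. RpL24 was at 64.6 and 68.2 CPM in control and 59.4 and 56.1 in tumor on its own target, which was not called, and its locus sum had -0.51. RpL10Ab, listed at 0, fell on the locus sum with -0.44.

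The -like genes RpL7-like, RpL24-like and RpLP0-like are related in yeast to factors that assemble the large subunit and then leave it. RpLP0-like rose, from 20.1 and 17.5 CPM to 38.4 and 30.4, a log2 fold change of 0.88 ± 0.19 with an edgeR adjusted p of 0.027. That call was lost when control 1, control 2 or tumor 1 was left out, with adjusted p-values of up to 0.14, and 98.3% of its locus sum was on 14-3-3zeta. RpL24-like was at 26.8 and 36.3 CPM in control and listed at nearly 0 in tumor, with a locus sum that fell by 0.42 on the log2 scale. RpL7-like, at 1.69 and 1.501 CPM in control and 1.54 and 0.71 in tumor, was not called.

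Ribosomal protein genes outside the naming rule fell as well. Rack1, which sits on the head of the small subunit, fell from 3965 and 3883 CPM to 1920 and 1732, a log2 fold change of -1.10 ± 0.10 with an edgeR adjusted p of 0.0036, and of -0.62 on the locus sum. The small subunit gene sta was listed at 0, and its locus sum had -0.74. Of 7 elongation factor genes, 6 fell on the locus sum and 0 rose, with a median of -0.65, where 27.4% of all loci were called lower. Among these falls, eEF5 lies partly inside the RpL12 target, so its locus sum, at -0.77, includes RpL12 counts. The own target of eEF5 was not called, at -0.22 with an edgeR adjusted p of 0.73. On own targets 4 of the 7 genes fell and 1 rose, where 21.2% of all tested genes were called lower and 23.4% higher. The riser was eEF1gamma, which went from 31.4 and 35.1 CPM to 50.5 and 48.4 on its own target, with an edgeR adjusted p of 0.029. That call was lost with any of the 4 libraries left out, at adjusted p-values of up to 0.13, and the gene had a locus sum with a log2 fold change of -0.71. The most abundant was eEF1alpha1, which brings aminoacyl-tRNA to the ribosome. It was at 9198 and 9208 CPM in control and 5887 and 5500 in tumor, with a log2 fold change of -0.69 ± 0.09 and an edgeR adjusted p of 0.0083 that reached 0.067 without control 1 or control 2. eEF2, which moves the ribosome along the mRNA, was at 5191 and 5300 CPM in control and 3517 and 3316 in tumor. Of 3 genes for other ribosome-associated factors 2 fell on the locus sum, among them Nacalpha, a subunit of the nascent chain binding complex, with a log2 fold change of -0.75.

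Genes of ribosome assembly fell too, though less uniformly. Of 28 such genes, 21 fell and 2 rose on the locus sum, with a median of -0.47, and of 19 tested on own targets 12 fell and 0 rose. The shares called lower and higher were 27.4% and 27.9% over all loci, and 21.2% and 23.4% over all genes tested on own targets. Locus sums here too can include targets at ribosomal protein loci, as bys lies partly inside the target of RpS6. Nop56, a core protein of methylation-guide snoRNA particles, fell from 380 and 337 CPM to 138 and 142 on its own target. This was a log2 fold change of -1.35 ± 0.10 with an edgeR adjusted p of 0.0024, against -0.72 on the locus sum. Polr1A, the largest subunit of RNA polymerase I, fell from 370 and 337 CPM to 187 and 181. The nucleolar GTPase gene Ns1 fell from 160 and 155 CPM to 86.3 and 78.1. In all 3 genes the groups were widely apart, and the calls held with any library left out. eIF6, which keeps the subunits apart until the large subunit is mature, was listed at 0 in tumor, but its locus sum rose by 0.42 on the log2 scale.

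Regulators of ribosomal protein genes and of growth showed no common direction. Of 12 matched, 5 rose and 4 fell on the locus sum, with a median of 0.03, where 27.9% of all loci were called higher and 27.4% lower. These shares are near the background. Among the 4 falls was Dref, which neighbours RpL13 and whose locus sum gave the same log2 fold change, -0.60. The own target of Dref was not called, at 0.10 with an edgeR adjusted p of 0.48. The genes below are given for their own values. Xrp1, the bZIP factor that is induced in fly cells with reduced ribosomal protein gene dose, rose from 165 and 227 CPM to 929 and 892. Both tumor libraries were far above both control libraries, with a log2 fold change of 2.22 ± 0.18 and an edgeR adjusted p of 0.0030, at most 0.016 with any library left out. Its dimer partner Irbp18 rose from 7.85 and 8.04 CPM to 25.3 and 27.2, a log2 fold change of 1.72 ± 0.18 with an edgeR adjusted p of 0.0049. Trf2, the TBP-related factor that binds the promoters of ribosomal protein genes in flies, rose from 337 and 354 CPM to 658 and 632, a log2 fold change of 0.90 ± 0.08. These values are from own targets. On locus sums the log2 fold changes of Xrp1, Irbp18 and Trf2 were 2.14, 0.72 and 0.85, so that of Irbp18 was much smaller there.

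Thor, the translational repressor controlled by TOR, rose from 102 and 149 CPM to 330 and 291, with an edgeR adjusted p of 0.012 that became 0.051 without tumor 1. S6k, the kinase of RpS6, rose from 263 and 256 CPM to 387 and 366, with an edgeR adjusted p of 0.00999 that was 0.068 without control 1 and 0.073 without control 2. Myc, an activator of ribosome synthesis, fell from 1059 and 1334 CPM to 805 and 666, a log2 fold change of -0.70 ± 0.17 with an edgeR adjusted p of 0.032. The Myc call was lost when control 1, control 2 or tumor 2 was left out, with adjusted p-values of up to 0.13. In none of these 3 genes did the groups overlap.

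**Figure D5:**
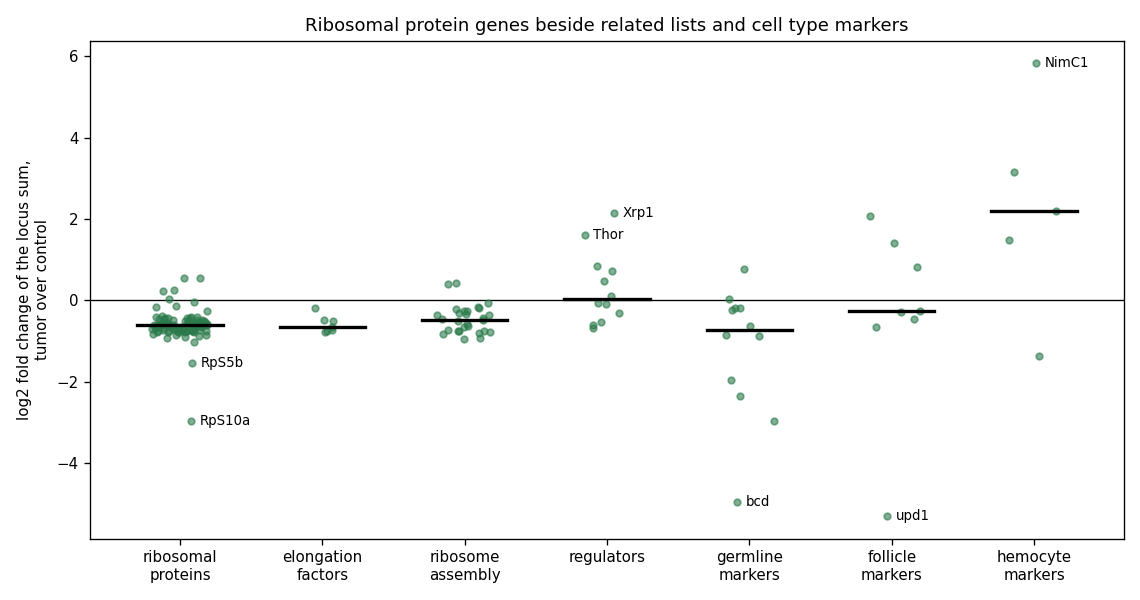
Log2 fold change of the locus sum, tumor over control, for every gene of 7 lists, with 1 point per gene and a bar at each median. The ribosomal proteins cluster near their median of -0.61, while the regulators spread on both sides of a median of 0.03 with Xrp1 at 2.14.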

How the data were processed

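All 4 libraries were used, with group and replicate number taken from the sample titles. The submitters' processing notes name kallisto as the quantifier. Its version is not given in the sources used here, nor are the strand setting, the annotation and the build. The files deposited by the authors hold, per the file headers, target lengths, estimated counts, which need not be whole, and TPM values, which are scaled per effective length. Gene symbols came from a name table that matched 17668 of 17773 identifiers, and coordinates and exons from Ensembl release 115 (BDGP6.54).

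Rounded estimated counts were tested in R 4.3.3 with edgeR 4.0.16 (filterByExpr, TMM, glmQLFit and glmQLFTest, two-sided, with group as the term, Benjamini-Hochberg over all genes, threshold 0.05). Fits of all 4 libraries with group alone have 2 residual degrees of freedom. Those with a replicate block or with a library left out have fewer. CPM values use the same scaling. Locus sums were tested over all loci with the library sizes and TMM factors of the single targets. A host sum adds to a gene the snoRNA genes inside its span. The steps were tested on simulated counts, with 50 genes at each simulated log2 fold change. At -3 and 3, 48 and 50 genes were recovered, but at -1 and 1 only 1 and 3. The simulation gave every gene the same spread between libraries and held no change as small as the members' median. It therefore does not measure how well changes of that size are called. The series description calls the libraries biological replicates but does not name the animals, so p-values measure the spread between these libraries.

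The members, lists, pairs and alternatives were chosen with earlier results of these data known. Named genes were every member of a duplicated pair, the 6 highest and 6 lowest own-target fold changes among other tested members, the 5 highest mean TPM, members called in the rarer direction, and up to 4 called genes per other list, of which some are named. RpL21, RpS12, eIF6 and the genes given by place in the ribosome were chosen after their values were seen. Alternatives were other scalings (DESeq2 size factors, upper-quartile, library totals, TMM without ribosomal protein and snoRNA targets), no filter or at least 50 counts in 2 libraries, DESeq2 1.42.0, limma-voom and limma-trend on log2(TPM + 1) in limma 3.58.1 (pseudocounts of 0.1 and 5 as well), a replicate block, leaving out each library, and a threshold of 0.01. Those on locus sums were added after the data were seen. Tor and nos were not matched in the name table and are not analysed here. Single values of 2 members are not reported here.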

Additional observations from a re-analysis of the deposited data

How the results depend on the processing

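The direction of the members' median did not depend on any of the alternatives run. On own targets 33 members fell and 4 rose, and these became 21 and 2 at an adjusted p of 0.01. With host sums 60 fell, and with locus sums 81. Leaving out 1 library gave 10 to 34 members that fell and 2 to 3 that rose. The own-target median of -0.64 was -0.55 with library totals, -0.76 with upper-quartile factors, and -0.40, -0.37 and -0.37 by limma-trend on log2(TPM + 0.1), log2(TPM + 1) and log2(TPM + 5). The median of all genes, 0.02 under TMM, was as high as 0.25 under these scalings, and relative to it the members' median lay between -0.76 and -0.51 in every setting. It ranged from -0.76 to -0.57 with 1 library left out. The large minus small subunit difference of -0.06 ranged from -0.19 to -0.042 with 1 library left out.

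The locus sums' median of -0.61 was -0.51 with library totals, -0.72 with upper-quartile factors and -0.67 to -0.55 with 1 library left out. The summed TPM difference of -0.41 was -0.55 as a share of counts, -0.56 without snoRNA and mitochondrial targets, and -0.42 to -0.39 with 1 library left out. The log2 ratio of RpS28a to RpS28b changed by -0.50 in TPM and by 0.80 in locus sums, which hold other genes' counts. The signs of RpL14, RpL24, RpL31, RpL38 and RpS28b on own targets, and of RpL38 and RpS15Ab on locus sums, changed between settings. With a replicate block 28 members fell and 3 rose on own targets, and 80 and 2 on locus sums. The main fit had no replicate block because the labels do not say that a number marks a shared batch. Same-numbered libraries did not deviate together (correlation -0.02 across genes).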
